A study of Drosophila melanogaster with 3 samples.

Results

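The genes described here make the drosopterins, the red pteridine pigments of the fly eye. They are se, pr, Pu, Hn, ry, mal, cl, DhpD and Sptr, chosen by name, and their probes were found by the CG number in the scanner tables. All 9 genes were on the arrays, with 11 of the 11744 probes. Hn and cl had 2 cDNA clones each and the other genes 1. Their expression was compared between homozygous kep1 mutants (kep1-/kep1-) and wild-type w1118 flies of Drosophila melanogaster, both male. Kep1 binds RNA through a KH domain. Each of 3 spotted 2-colour cDNA arrays held wild-type RNA with Cy3 in channel 1 and mutant RNA with Cy5 in channel 2, and no dyes were swapped. The design text gives heads of flies aged 3 to 4 days and 3 separate RNA samples, while the source labels say only male RNA. w1118 flies have unpigmented eyes, and the labels do not say which eye colour alleles the mutant stock carried. Genotype, strain background and dye therefore cannot be told apart in any ratio below.

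Drosopterin synthesis starts from GTP. Punch (Pu) opens its ring, purple (pr) makes 6-pyruvoyl tetrahydropterin, and sepia (se) turns that product into a pyrimidodiazepine, the intermediate that condenses into red pigment. A side branch leads to tetrahydrobiopterin, the cofactor of phenylalanine, tyrosine and tryptophan hydroxylases, and xanthine dehydrogenase oxidises pterins that leave the pathway. Mutants of several of these genes are classical eye colour mutants, and sepia itself is named for its brown eyes.

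Arrays 1, 2 and 3 are numbered here in the order of their records. Their titles call the first of them 1, the second 3 and the third I vs J. Array 2 stood apart from the others. Across probes, which are not independent replicates, its log2 ratios correlated with Pearson's r = 0.41 and 0.476 with arrays 1 and 3, against 0.691 between those 2 arrays. The 95th percentile of its blank spots, called the blank level here, was 112.4 and 128.2 in the wild-type and mutant channel, against 311.6 to 446.0 on arrays 1 and 3. Of the 15 eye genes set as markers of heads, such as the opsin and arrestin genes, 13 lay above that blank level in all 6 channels. So did 4 of 9 gut genes and 6 of 9 genes of testis and accessory gland, against 2561 of all 9139 tested genes. The kep1 probe (listed as qkr58E-3) had mutant over wild-type log2 ratios of -1.59, -1.35 and -2.13, a mean of -1.69 ± 0.40 (SD, n = 3 arrays), and missed the threshold (limma adjusted p = 0.0726).

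Sepia, an omega-class glutathione transferase that acts as the pyrimidodiazepine synthase, rose in the mutant. Its probe (clone RH04924, CG6781, chromosome arm 3L) had foreground intensities of 602.4, 514.1 and 334.7 in wild type on arrays 1, 2 and 3. In the mutant channel of the same arrays they were 1420, 875.4 and 742.3. The mutant was the brighter channel on each array. Its lowest value also lay above the highest wild-type value, though this compares different arrays before normalization and ignores their pairing. After normalization the log2 ratios were 1.13, 0.95 and 1.01, a mean of 1.03 ± 0.09 (SD, n = 3 arrays), or 2.04-fold higher. The 95% interval of the fold change was 1.82 to 2.29, and the adjusted p over all probes was 0.0346 (limma). Higher probes past the threshold were 0.0682% of the 11733 tested, and probes past it in either direction 0.145%, or 17 in all. The ratio of se was the 7th largest of the 8 higher probes.

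The size of the se ratio moved little when an array was left out, while the call was lost without array 1 or array 3. Its log2 ratio was 1.07 without array 2 (limma adjusted p = 0.0410), 0.98 without array 1 (limma adjusted p = 0.301) and 1.04 without array 3 (limma adjusted p = 0.181). Scale normalization between arrays gave 1.05 and also ended the call (limma adjusted p = 0.124). With scale normalization, without array 1 and without array 3, 0 of all tested probes passed the threshold. The wild-type signal on array 3 lay below the blank level of 446.0, while the other 5 values of se lay above the level of their own channel. The duplicate spots of se differed by 0.11, 0.43 and 0.05 on the log2 scale on arrays 1, 2 and 3, with every spot between 0.73 and 1.18.

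**Figure D1:**
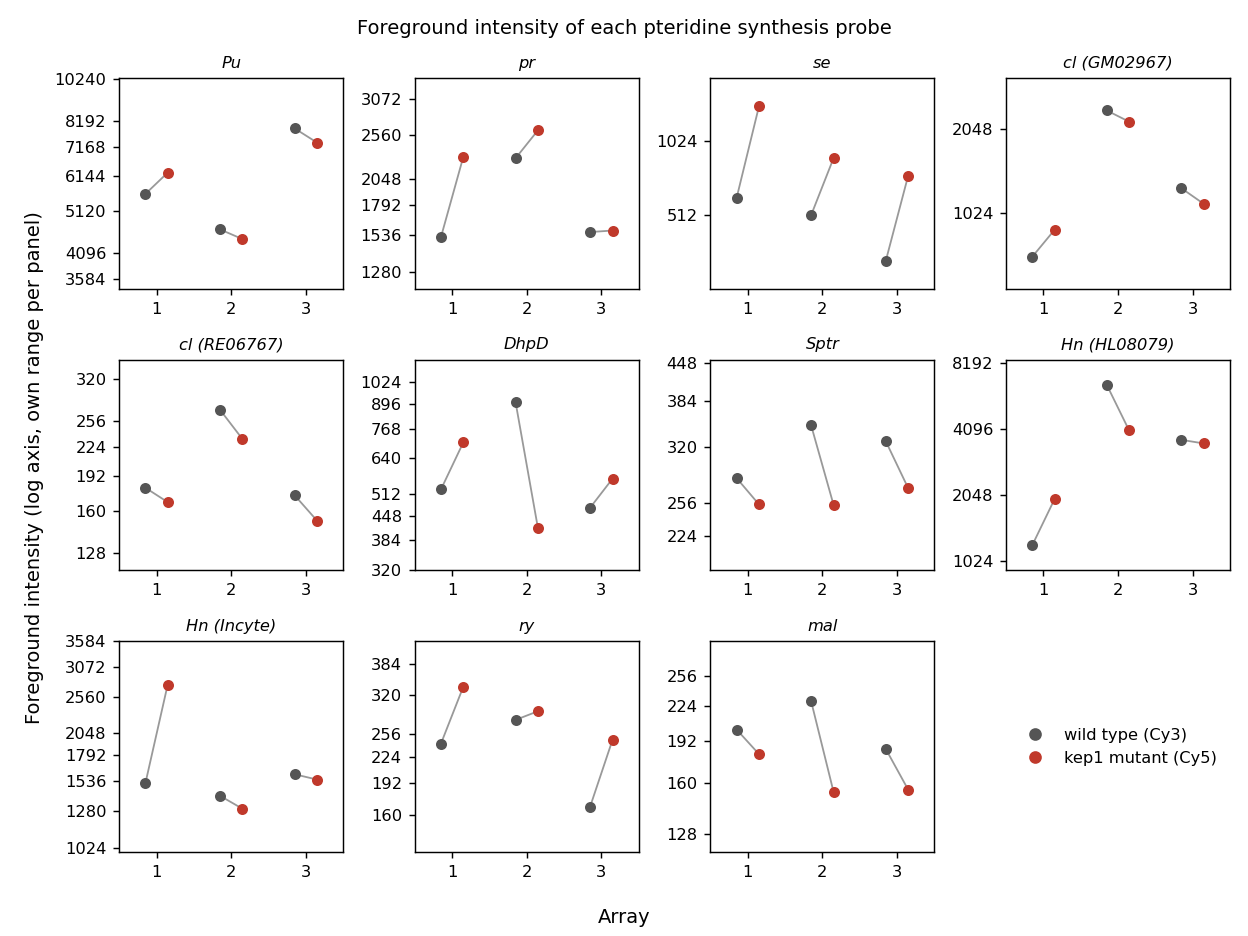
Foreground intensity (log axis, with its own range in each panel) of each of the 11 probes on arrays 1, 2 and 3, each point the mean of 2 duplicate spots and each line joining the channels of 1 array. The se points of the mutant lie at 742.3 to 1420, above the wild-type points at 334.7 to 602.4. The 2 channels of the DhpD, Hn and Pu probes and of cl clone GM02967 change order between arrays.

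Purple (pr), the 6-pyruvoyl tetrahydropterin synthase that feeds sepia, stood slightly above wild type and did not pass the threshold. In wild type its foreground intensity was 1523, 2270 and 1563 on arrays 1, 2 and 3, while the mutant gave 2288, 2616 and 1575. The mutant was the brighter channel on each array, by very little on array 3, and the values overlapped between arrays. The log2 ratios were 0.41, 0.42 and 0.04, a mean of 0.29 ± 0.22 (SD, n = 3 arrays; limma adjusted p = 0.293). The 95% interval, 1.02 to 1.47-fold, lies wholly below that of se.

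Punch (Pu), the GTP cyclohydrolase that opens the pathway, gave bright wild-type signals of 5591, 4642 and 7892 against 6256, 4413 and 7326 in mutants. The mutant channel was the brighter one on array 1 only. Its log2 ratios were -0.04, 0.14 and -0.07, a mean of 0.01 ± 0.11 (SD, n = 3 arrays; limma adjusted p = 0.967). Its interval was 0.89 to 1.14-fold.

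Clot (cl), a thioredoxin-like protein needed together with sepia for the pyrimidodiazepine step, was measured by 2 clones with means near 0. Clone GM02967 had wild-type signals of 716.6, 2374 and 1257 against 894.1, 2166 and 1106 in mutants, with log2 ratios of 0.16, 0.08 and -0.18. Its mean was 0.02 ± 0.18 (SD, n = 3 arrays; limma adjusted p = 0.935), with an interval of 0.87 to 1.19-fold. The dimmer clone RE06767 was above the blank level in 2 of 6 channels and had a mean of 0.02 ± 0.06, with an interval of 0.92 to 1.12-fold. For both clones the sign of the mean changed with the normalization. On every array the ratio of se lay above that of either clot clone.

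DhpD, the dihydropterin deaminase that acts in the synthesis of aurodrosopterin, a red eye pigment, had opposite signs on different arrays. Wild-type signals were 526.9, 906.0 and 470.5, against 705.8, 414.2 and 563.2 in mutants. Arrays 1 and 3 had log2 ratios of 0.26 and 0.25, and array 2 had -0.80. Both duplicate spots on array 2 were low, at -0.73 and -0.87. The mean was -0.10 ± 0.61 (SD, n = 3 arrays; limma adjusted p = 0.900), with a wide interval of 0.59 to 1.47-fold. Without array 2 the mean turned to 0.25 and still missed the threshold (limma adjusted p = 0.197).

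Sptr, the sepiapterin reductase of the tetrahydrobiopterin branch, had weak wild-type signals of 282.6, 348.8 and 327.5 against 254.4, 253.9 and 271.5 in mutants. The log2 ratios were -0.0014, -0.15 and -0.10, a mean of -0.08 ± 0.07 (SD, n = 3 arrays; limma adjusted p = 0.591). It was the 1 member below 0 on all 3 arrays, by very little on array 1, and its interval was 0.85 to 1.05-fold. Only 2 of its 6 channels lay above the blank level.

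Henna (Hn), the phenylalanine hydroxylase that uses tetrahydrobiopterin, was the member whose arrays disagreed most after DhpD. Clone HL08079 had wild-type signals of 1210, 6531 and 3667 against 1967, 4045 and 3530 in mutants. Its log2 ratios were 0.52, -0.47 and -0.03, a mean of 0.0078 ± 0.50 (SD, n = 3 arrays; limma adjusted p = 0.992). The other Hn clone had wild-type signals of 1512, 1403 and 1599 against 2757, 1297 and 1548 in mutants, with log2 ratios of 0.69, 0.11 and -0.02. Its mean was 0.26 ± 0.38 (SD, n = 3 arrays; limma adjusted p = 0.532), and it was 0.046 without array 1 and 0.40 without array 3. Both clones had their highest ratio on array 1, but they differed in sign on array 2. The intervals, 0.69 to 1.46-fold and 0.90 to 1.60-fold, were wide.

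Rosy (ry), the xanthine dehydrogenase that oxidises pterins, stood a little above wild type on all 3 arrays without passing the threshold. Wild-type signals were 241.6, 277.2 and 167.9, against 336.1, 291.5 and 247.1 in mutants. The log2 ratios were 0.37, 0.25 and 0.23, a mean of 0.28 ± 0.07 (SD, n = 3 arrays; limma adjusted p = 0.140), or 1.22-fold with an interval of 1.09 to 1.35. This probe was dim, with 3 of 6 channels above the blank level, and its size moved with the background step. The mean was 0.51 without background subtraction (limma adjusted p = 0.0809) and 0.57 with plain subtraction (limma adjusted p = 0.0794).

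Maroon-like (mal), the sulfurase that activates the molybdenum cofactor of xanthine dehydrogenase, had wild-type signals of 202.3, 228.8 and 185.8 against 181.7, 154.0 and 155.5 in mutants. The log2 ratios were 0.09, -0.15 and -0.04, a mean of -0.03 ± 0.12 (SD, n = 3 arrays; limma adjusted p = 0.885). Its interval was 0.86 to 1.11-fold. Only 2 of its 6 channels lay above the blank level, so rosy and its activating enzyme were both dim on these arrays.

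**Figure D2:**
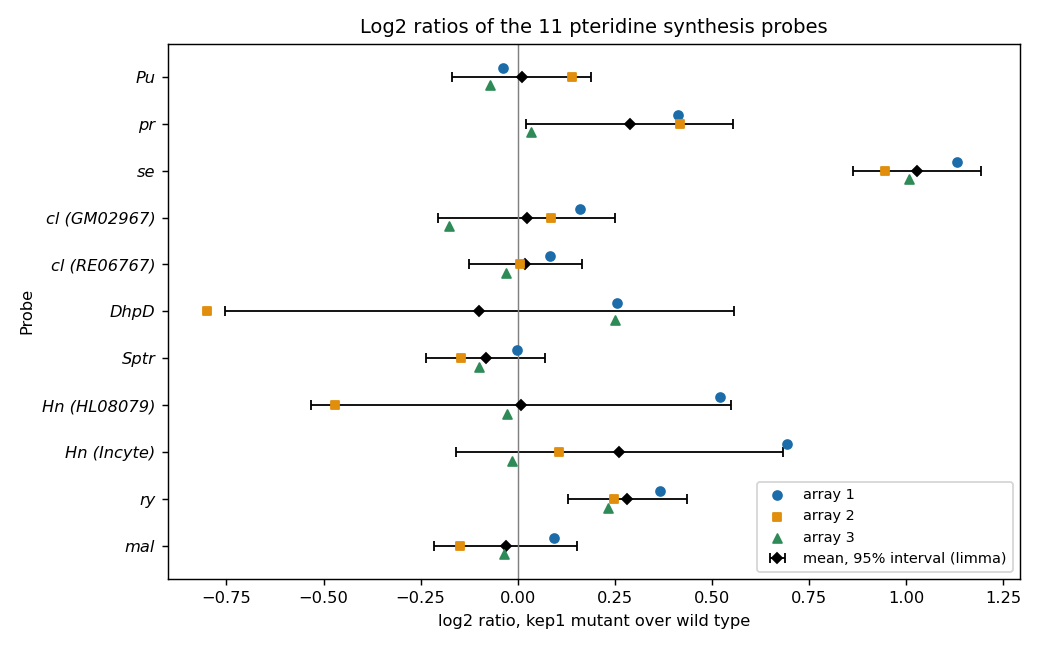
Log2 ratio of mutant over wild type (x axis) of each of the 11 probes on arrays 1, 2 and 3, with the mean and its 95% interval from the fit across all probes. The 3 values of se lie between 0.95 and 1.13, and the array 2 value of DhpD (-0.80) lies far from those of arrays 1 and 3. The values of Hn clone HL08079 spread from -0.47 on array 2 over -0.03 on array 3 to 0.52 on array 1.

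All 11 probes passed the filter on dim probes, which kept 11733 of all 11744 probes. Besides se, 0 of the 10 other probes passed the threshold in limma, while 2 of them, pr and ry, were higher with p under 0.05 before adjustment and 0 were lower. Of all probes 6.24% were higher and 9.25% lower by that measure. Their means ran from -0.10 to 0.29. With se, 4 of the 11 probes kept 1 sign on all 3 arrays, near the 39.0% of all probes that did so. The median over the 9 genes was 0.01, against -0.0071 over 9139 tested genes, each taken by its brightest probe. By array the median of the 9 genes was 0.26, 0.08 and -0.03, and it was 0.22 when array 2 was left out.

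Within each array the ratio of se was above that of all 8 other genes. The mean difference on the log2 scale was 0.74 ± 0.22 against pr and 1.13 ± 0.54 against DhpD (SD, n = 3 arrays). Against ry, a dim probe, its size moved with the background step. The mean of se was 1.10 without background subtraction and 1.11 with plain subtraction, where that of ry was 0.51 and 0.57. With 3 arrays an exact two-sided sign-flip test of such a difference cannot give a p below 0.25, so none was run. The next highest member differed between arrays, being Hn at 0.69 on array 1, pr at 0.42 on array 2 and DhpD at 0.25 on array 3.

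Sepia lies in a cluster of omega-class glutathione transferase genes, with GstO3 on one side and GstO2 and GstO1 on the other, and its neighbours on the chromosome were read from the same arrays. GstO2, whose annotated span overlaps that of se, had log2 ratios of -0.04, -0.01 and -0.15, a mean of -0.07 ± 0.08. GstO3 stood at -0.0050 ± 0.04 and GstO1 at 0.04 ± 0.06, and GstO1 was above the blank level in 0 of 6 channels. None of these 3 paralogs passed the threshold in limma, and 0 reached p under 0.05 before adjustment. How far the se clone binds transcripts of its paralogs, or of GstO2 in the shared stretch, was not tested.

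Among the 5 genes on either side of se, a set chosen by position, none passed the threshold in limma, while before adjustment p was under 0.05 for 2 lower and 0 higher genes. These 2 were ergic53, which stood at -0.43 ± 0.22, and Pus7, which stood at -0.26 ± 0.06. Among all 9139 tested genes, 916 were lower and 520 higher by the same unadjusted measure. The means of the 10 neighbours ran from -0.43 to 0.13, with a median of 7e-04.

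**Figure D3:**
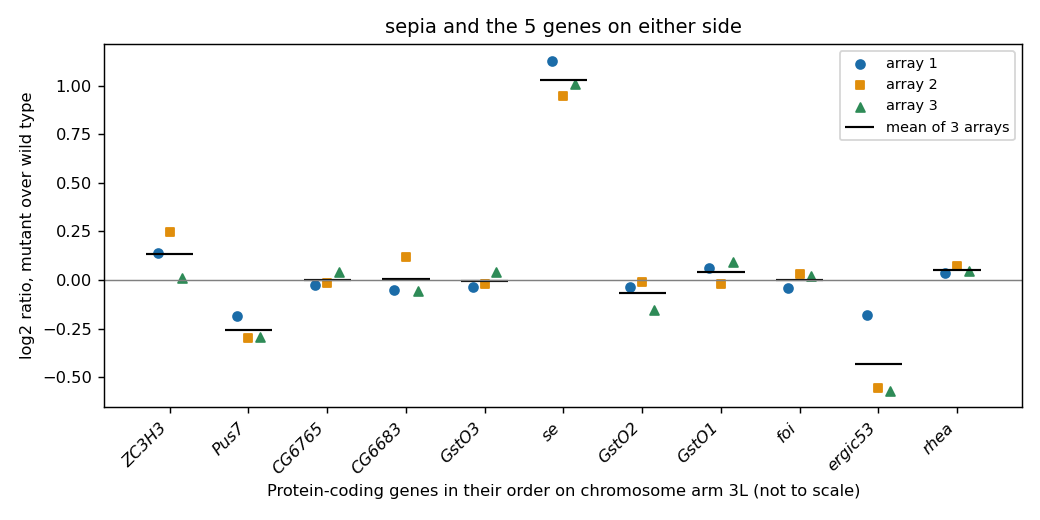
Log2 ratio of mutant over wild type (y axis) on each array for se and the 5 protein-coding genes on either side, in their order on chromosome arm 3L and not to scale, with a bar at the mean of the 3 arrays. The mean of se is 1.03, and those of the 10 neighbours lie between -0.43 and 0.13.

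Genes that supply or use the products of the pathway were set beside it in 6 lists of 43 genes, of which 36 were measured. In limma 0 of the 36 passed the threshold, while before adjustment p was under 0.05 for 3 lower and 0 higher genes, and the median was -0.02. By that unadjusted measure 916 of all 9139 tested genes were lower and 520 higher. Gclm and Gclc, which are among those 3, encode the subunits of glutamate-cysteine ligase, which makes the precursor of glutathione, the thiol that sepia needs for its reaction. They stood at -0.33 ± 0.21 (-0.16, -0.56 and -0.27) and -0.25 ± 0.11 (-0.16, -0.22 and -0.37), below 0 on all 3 arrays. The limma adjusted p-values were 0.231 and 0.202.

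Genes of purine and GTP supply had a median of -0.06 over 10 measured members, with array medians of 0.11, -0.35 and -0.15. Adss, an adenylosuccinate synthetase on the route from IMP to AMP, had the largest ratio of the list, -0.77 ± 0.43, with -0.67, -1.24 and -0.39 on the 3 arrays (limma adjusted p = 0.166). The GMP synthetase gene bur stood at -0.33 ± 0.38, also below 0 on all arrays. The values of ras, which encodes the IMP dehydrogenase on the route to GTP, were 0.34, -0.41 and 0.21.

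The other lists had medians within 0.04 of 0. Of 5 genes that use or recycle tetrahydrobiopterin (median -0.03), Dhpr, the dihydropteridine reductase, stood at -0.12 ± 0.05 and Pcd, the carbinolamine dehydratase, at 0.11 ± 0.05, each with 1 sign on all arrays. The tyrosine hydroxylase gene ple stood at 0.03 ± 0.11. Of 6 genes of the molybdenum cofactor and its enzymes (median 0.02), the sulfite oxidase gene shop stood at 0.20 ± 0.23, and AOX1 and AOX3, aldehyde oxidases that like rosy need mal, at -0.12 ± 0.18 and 0.06 ± 0.15. Of 10 genes of pigment granule biogenesis (median 0.0020), pink (p) stood at -0.21 ± 0.17 and Rab32 (lightoid) at 0.11 ± 0.15.

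Markers of cell types were also compared between the channels, and eye markers are given first because pigment cells lie in the eye. Of these markers, only genes of gut and of testis and accessory gland passed the threshold in limma. All 15 eye genes were measured. In limma 0 passed the threshold, while before adjustment p was under 0.05 for 4 higher and 0 lower genes, and the median was 0.13 (0.39, -0.22 and 0.21 on the 3 arrays). The 4 were the lens protein gene Crys (0.96 ± 0.16), the opsin genes Rh4 (0.81 ± 0.12) and Rh6 (0.58 ± 0.16), and ninaA, a chaperone of rhodopsin (0.49 ± 0.12). The major opsin gene ninaE stood at 0.13 ± 0.32. Means below 0 were those of ninaB (-0.33), inaD (-0.23), Rh5 (-0.13), Arr2 (-0.11) and Arr1 (-0.10). Rh5 was below 0 on all 3 arrays. Over all 9139 tested genes, 520 were higher and 916 lower with p under 0.05 before adjustment in limma. The ratio of se was above all 15 on arrays 1 and 3 and above all but Crys (1.13) on array 2. The summed foreground of the list was 43640 to 72334 in wild type and 51010 to 58845 in the mutant. Their part in the result for se was not tested, and in RNA of whole tissue fewer cells of a type and less RNA per cell cannot be told apart.

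Fat body genes also stood above wild type, with a median of 0.72 over 4 genes, none past the threshold in limma and 2 with p under 0.05 before adjustment. Lsp2 stood at 2.72 ± 0.97, and the summed foreground was 4104 to 10127 in wild type and 7985 to 14715 in the mutant. Gut genes had a median of -0.95 over 9 genes, 2 of which fell (Amy-d and Amy-p; 0.0767% of all probes were called lower). Genes of testis and accessory gland had a median of -1.16 over 9 genes, of which loopin-1 fell. In limma without adjustment, p was under 0.05 for 7 lower gut genes and 8 lower genes of testis and accessory gland. In both lists 0 were higher by that measure. Summed foregrounds were 11751 to 25295 in wild type and 3803 to 8372 in the mutant for gut, and 15375 to 30377 and 7705 to 16424 for testis and accessory gland. Muscle genes had a median of -0.67 over 5 genes (0 past the threshold in limma, 4 lower with p under 0.05 before adjustment), glial genes 0.14 over 4 and neuronal genes 0.06 over 4. By the unadjusted measure 2 glial genes and 1 neuronal gene were higher, and 0 of either list were lower. Before adjustment 520 of all 9139 tested genes were higher and 916 lower with p under 0.05 in limma. Female genes had a median of 0.57 over 4 genes, at -0.27, 2.66 and 0.28 on the 3 arrays, with 2 higher and 0 lower by the unadjusted measure. Yp1 alone stood at -2.54, 2.96 and -0.78. Each of the 4 had its highest ratio on array 2, the array that stood apart across probes. The part of these tissues in the ratios of the pteridine genes was not tested.

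**Figure D4:**
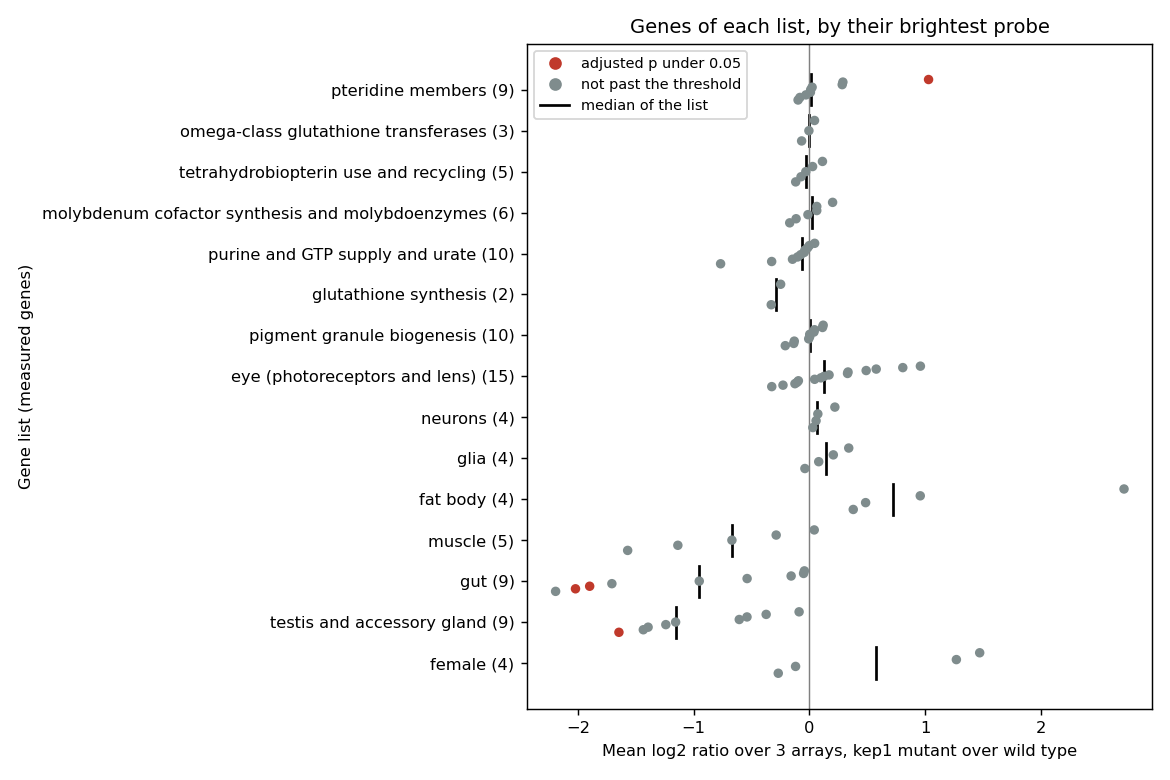
Mean mutant over wild-type log2 ratio (x axis) of the measured genes of each list, each by its brightest probe, with the number of genes in brackets, a bar at the list's median and genes past the threshold in red. Among the pteridine genes se lies at 1.03 and the other 8 between -0.10 and 0.29, while the eye list reaches from -0.33 to 0.96.

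The 5 genes whose log2 ratios lay nearest to those of se over the 3 arrays, by Euclidean distance, were Acat1, CG2818, hzg, Crys and Had1. Acat1, an acetyl-CoA acetyltransferase, had ratios of 1.15, 1.03 and 1.04 at a distance of 0.0917, and the others lay at distances of 0.247 to 0.374. Crys, at 0.91, 1.13 and 0.83, was the 1 eye marker among them. Of the pteridine genes ry and pr came nearest to se, in places 264 and 294 of 9139, at distances of 1.29 and 1.32. The other 6 lay in places 3542 to 7746.

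**Figure D5:**
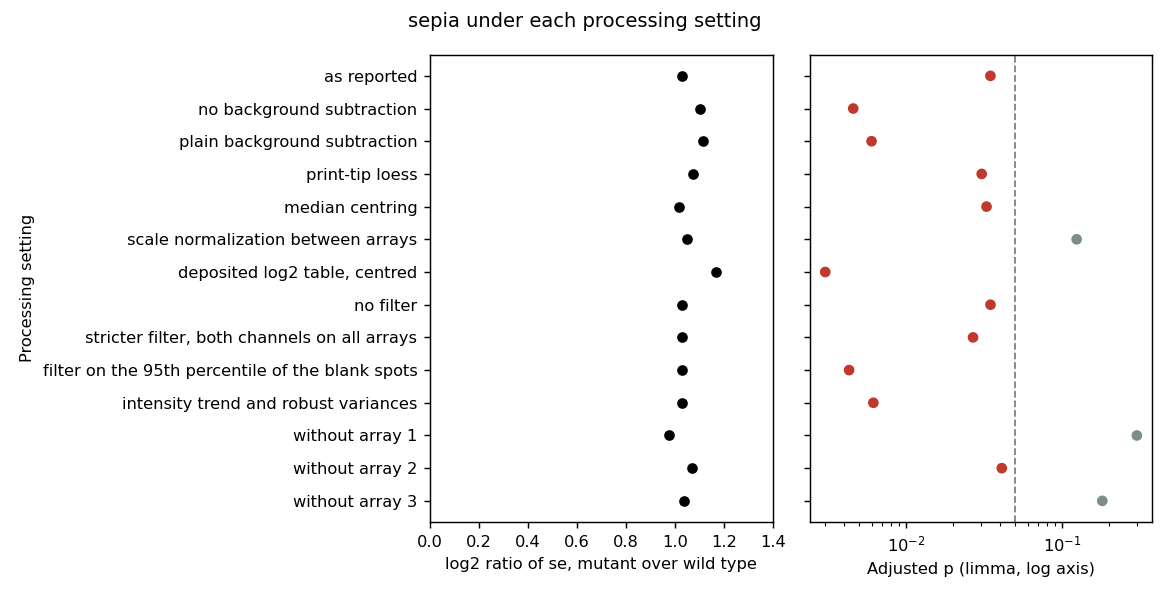
Log2 ratio of se (left, starting at 0) and its adjusted p (right, log axis, dashed line at 0.05) as reported and under each other processing setting, points past the threshold in red. The ratio lies between 0.98 and 1.17 throughout, and the call is lost with scale normalization and without array 1 or array 3.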

How the data were processed

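Per the file headers, the deposited scanner tables hold foreground and local background intensities on a linear scale, not normalized. The authors' deposited log2 table equals the uncentred log2 ratio of foregrounds, channel 2 against channel 1, at every spot that has a value (within 0.001), and served as an alternative. Of 27648 spots per array it is empty at 2869 on array 2, 32 on array 3 and 0 on array 1. The image software is not given in these sources. Intensities were background-corrected by normexp (offset 50), and each array's ratios by loess, in limma 3.58.1 (R 4.3.3), with control, blank, failed and ignored spots at weight 0. The offset shrinks ratios of dim probes. Duplicate spots were averaged. A probe entered the test when, on at least 2 arrays, either channel lay over 2 background SDs above local background (11733 probes). limma tested the mean ratio against 0, two-sided, with Benjamini-Hochberg adjustment over all probes and a threshold of 0.05. Steps were tested on simulated data. Replicates are 3 RNA samples whose rearing is not stated, so p-values reflect only how these samples vary, and their number limits the precision.

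Gene names came from a RefSeq table (Release 6 plus ISO1 MT), used for names and gene order only, and 10436 of 11744 probes matched. The members and lists were chosen with earlier results of these data known. Named by rule were all members, the 5 genes nearest to se, kep1, and up to 2 genes per list with the largest ratio of 1 sign. Others were chosen after their values were seen. No member sequence was used here.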

Additional observations from a re-analysis of the deposited data

How the results depend on the processing

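The number of probes past the threshold in limma, 17 (8 higher and 9 lower), depended strongly on the processing. It was 434 without background subtraction (116 higher, 318 lower), 390 with plain subtraction (102 higher, 288 lower) and 423 with the deposited log2 table (121 higher, 302 lower). It was 70 with median centring (25 higher, 45 lower), 35 with the stricter filter, 376 with the filter on blank spots and 292 with an intensity trend and robust variances. At an adjusted p under 0.1 it was 249. It was 0 with scale normalization between arrays (1829 probes at an unadjusted p under 0.05), and 0 to 100 when 1 array was left out, with 0 without array 1 (1332) and without array 3 (1194). The log2 ratio of se kept its direction under all 14 alternatives and its side of the threshold under 11. Some of these outcomes were fixed in advance. The filters, the intensity trend with robust variances and the threshold of 0.1 leave the ratio as it is. That looser threshold also cannot remove a call. It was 1.05 with scale normalization and 0.98 to 1.07 when 1 array was left out. The median of the 9 member genes was -0.046 to 0.22 with 1 array left out. None of the other 10 probes passed under any alternative setting. The filters and the intensity trend leave a ratio as it is, so they could not turn its sign. Counting each probe under each setting gave 124 values, of which 11 turned the sign. These were Pu with scale normalization (-0.0060), cl clone GM02967 with print-tip loess (-0.013), and cl clone RE06767 with median centring (-0.013) and the deposited table (-0.070). The rest came from leaving out 1 array, which gave -0.055 to 0.051 for Pu, -0.046 to 0.12 and -0.012 to 0.045 for cl clones GM02967 and RE06767, -0.28 to 0.25 for DhpD, -0.25 to 0.25 for Hn clone HL08079 (0.046 to 0.40, with no turn of sign, for the other Hn clone), and -0.093 to 0.028 for mal. The cause was not tested. The test is itself paired, since each ratio sets mutant against wild-type RNA on 1 array, and no further replicate block was fitted. Signal over background limits cl clone RE06767, Sptr, ry and mal, each with 2 or 3 of 6 channels above the 95th percentile of the blank spots.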

Other observations

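Among the member probes, the largest steps from raw to normalized ratio were those of mal and DhpD on array 2. Before normalization the foreground ratio of DhpD was -1.13 on the log2 scale there, against -0.80 after it, and that of mal was -0.57, against -0.15. For se the ratios before normalization were 1.24, 0.77 and 1.15, and for ry 0.48, 0.07 and 0.56, so each had its lowest value on array 2. Duplicate spots of the member probes differed by a median of 0.16, 0.14 and 0.07 on arrays 1, 2 and 3, against 0.11, 0.10 and 0.08 over all probes.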
